A study of Drosophila melanogaster with 2 samples.

Results

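The developmental genes bcd, trx, jing, Tm1, zpg and Gasp of Drosophila melanogaster each carried a strong peak of the tagged protein CG18011 at a start site of transcription. These 6 genes were picked from 13945 protein-coding genes on the 6 chromosome arms because their signal in the reproducible peak list was high although their pathways were taken to be rarely bound, which the gene lists given last bear out for some pathways only. Their signal there is therefore a description of the selection and was not tested. CG18011 encodes a zinc finger protein, and the line used expresses it with GFP fused to its C terminus. Chromatin of whole embryos of that line, 0 to 24 h old and of both sexes, was sheared by sonication to 200 to 800 bp and immunoprecipitated with an antibody against GFP. The 2 libraries are biological replicates 1 and 2 of this 1 group, and no control library was analysed here. All stages and tissues of the embryo were pooled, so the cells in which a site was occupied were not measured, and the endogenous protein was not assayed apart from the fusion.

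The genes belong to different programmes. Bicoid, the product of bcd, is a homeodomain protein whose maternal mRNA lies at the anterior pole of the egg and which patterns the head and thorax. Trithorax (trx) is a histone H3 lysine 4 methyltransferase that keeps homeotic genes active, and jing encodes a zinc finger protein that acts in border cell migration and in the nervous and tracheal systems and copurifies with Polycomb repressive complex 2. Tm1 is a tropomyosin gene whose many isoforms bind actin filaments in muscle and in the cytoskeleton, and one of them takes part in the transport of oskar mRNA. Zero population growth (zpg) is the innexin that forms gap junctions between germ cells and their somatic neighbours, and Gasp is a secreted chitin-binding protein of the obstructor family found in the tracheal lining. A transcription start site is where RNA polymerase II begins a transcript, and zinc finger proteins that bind near such sites usually recognise short DNA words there.

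The DNA under 6 of the start-site peaks is shown because 5 of these summits, the positions of highest signal, lay close to related words, while trx is shown as the one that has neither. The remaining start-site peak, that of jing, is not printed although its summit also lay close to one of these words. Each sequence is taken from the RefSeq Release 6 genome (dm6) and reads 5′ to 3′ on the strand of the gene. None holds a base of an annotated untranslated region of its gene, though both Tm1 summits lie in an intron of longer Tm1 transcripts. The capitals mark 1 or both of 2 overlapping words, called here the split word (GCANNCAGC, where N is any base) and the joined word (CAGCTTTTG with up to 1 mismatch), on either strand, and in trx a known core promoter motif (GGTCACAC on the other strand). They come from chr3R:6759678-6759778 for bcd, chr3R:14286904-14287003 for trx, chr3R:15287868-15287968 and chr3R:15286141-15286241 for the stronger and the second peak of Tm1, chr3L:6606033-6606178 for zpg and chr3R:6101001-6101101 for Gasp. All lie on the minus strand except those of Tm1, which lie on the plus strand.
bcd: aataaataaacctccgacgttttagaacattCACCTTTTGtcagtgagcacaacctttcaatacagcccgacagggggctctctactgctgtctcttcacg
trx: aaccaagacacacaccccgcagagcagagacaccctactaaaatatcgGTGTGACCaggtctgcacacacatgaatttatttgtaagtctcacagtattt
Tm1: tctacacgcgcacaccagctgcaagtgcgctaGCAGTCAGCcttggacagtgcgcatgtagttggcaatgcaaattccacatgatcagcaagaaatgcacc
Tm1 second peak: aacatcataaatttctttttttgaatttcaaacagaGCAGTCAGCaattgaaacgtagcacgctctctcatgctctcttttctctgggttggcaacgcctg
zpg: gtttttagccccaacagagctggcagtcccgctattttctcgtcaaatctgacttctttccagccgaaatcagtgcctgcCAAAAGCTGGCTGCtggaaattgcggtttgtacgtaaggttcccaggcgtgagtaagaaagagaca
Gasp: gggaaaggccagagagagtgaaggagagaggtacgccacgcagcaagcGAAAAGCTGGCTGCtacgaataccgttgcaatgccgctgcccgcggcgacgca

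In these windows the summit is base 51 of the bcd, Tm1, Tm1 second peak and Gasp sequences, base 75 of the zpg sequence and base 76 of the trx sequence. The capitals of Tm1, the second Tm1 peak, zpg and Gasp all contain the split word, which the Tm1 peaks carry on the strand of the gene and zpg and Gasp on the other strand. The zpg sequence holds the joined word exactly, bcd holds it with the difference G3C and Gasp with G9C, counted from base 1 at the 5′ end of the joined word. The windows of zpg and Gasp share 14 bases in 1 run, AAAAGCTGGCTGCT on the strand of both genes, at chr3L:6606084-6606097 and chr3R:6101039-6101052. The next longest run shared by any of the 15 pairs of printed peaks was 11 bases, between bcd and trx.

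The deposited lists give each peak a signal in the authors' own unit, without a stated scaling for depth. The list that passed the irreproducible discovery rate (IDR), a measure of how well peaks rank alike in both replicates, held 3290 peaks of median signal 279.9. Each library also has its own relaxed list of about 30000 peaks, and so does the pool of both. To set the libraries side by side, each signal was divided by that library's median over the IDR peaks, 64.6 in replicate 1 and 222.8 in replicate 2, which gives a relative signal of 1 for a typical IDR peak. Read depth is unknown, and a counting error of a single peak is not reported. The spread given is between the 2 biological replicates.

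All 6 genes were bound, that is, an IDR summit lay within 500 bp of an annotated start, which held for 17.9% of the protein-coding genes. The selection required this and nothing is read from it. Since Tm1 had such a peak at 2 separate starts, the 6 genes account for 7 start-site peaks. Together with 87 others these are the 94 start-site peaks whose signal exceeds 10 times the IDR median. The 7 ranked from 29 to 148 among all IDR peaks. Gasp was the weakest of the 94.

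The start of bcd lies at chr3R:6759466 on the minus strand and serves all 5 of its annotated transcripts. Its peak spanned chr3R:6759297-6760367, and the summit at 6759728 lay 262 bp upstream of the start in DNA assigned to no protein-coding gene. The signal was 16643 in the IDR list, 3237 in replicate 1 and 13466 in replicate 2, where the peak ranked 48 and 54 in the lists of the libraries. On the relative scale these are 50.1 in replicate 1 and 60.4 in replicate 2, or 55.3 ± 7.29 (SD, n = 2). In both libraries bcd therefore stood far above a typical IDR peak. The nearest start of another protein-coding gene, that of Ama, an immunoglobulin-domain cell adhesion protein, lay 2865 bp from the summit.

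The 5 transcripts of trx likewise share 1 start, at chr3R:14286903 on the minus strand. The trx peak covered chr3R:14286355-14287824, with its summit at 14286928 and only 25 bp upstream of the start, the shortest distance among the 7 peaks. Its signal was 14032 in the IDR list, 2699 in replicate 1 and 11412 in replicate 2. The relative values were 41.8 in replicate 1 and 51.2 in replicate 2, with a mean of 46.5 ± 6.66 (SD, n = 2). In both libraries trx was lower than bcd, which had 50.1 in replicate 1 and 60.4 in replicate 2. Both peaks were higher in replicate 2, so their SDs do not measure the spread of this difference, which was not tested. The nearest start of another protein-coding gene, that of the eye colour gene red, was 2143 bp away.

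The gene jing runs over 120 kb of the plus strand of 2R, from 6502006 to 6621792, and has 3 starts for 4 transcripts. One of them carried the strong peak, at 6613768, which begins transcript RD alone. The peak spanned chr2R:6613067-6614199, and its summit at 6613643 lay 125 bp upstream of the start, inside an intron of the longer jing transcripts. The signal was 17024 in the IDR list, 3168 in replicate 1 and 13940 in replicate 2, or a relative 55.8 ± 9.54 (SD, n = 2). The interval of replicate 1 holds a weaker second summit with a signal of 490.5, where replicate 2 has 1 summit. At the start of transcript RI the strongest pooled peak had a signal of 135, and at that of RH and RJ, 148, and neither start had an IDR peak. The bound start thus serves 1 of the 4 annotated transcripts, and the nearest start of another protein-coding gene, CG33919, was 10934 bp away.

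Tm1, on the plus strand at chr3R:15278220-15308779, has 18 transcripts from 8 starts. Transcripts RC and RI begin at 15288012, and their peak, chr3R:15287142-15288447, had its summit at 15287918, 94 bp upstream. Its signal was 19524 in the IDR list, 3860 in replicate 1 and 15756 in replicate 2, a relative 65.2 ± 7.73 (SD, n = 2). A second peak at chr3R:15285552-15287167 had its summit at 15286191, 228 bp upstream of the start of transcript RH at 15286419. There the signal was 13503 in the IDR list, 2591 in replicate 1 and 10996 in replicate 2, a relative 44.7 ± 6.51 (SD, n = 2). The stronger peak exceeded the second in both libraries. The summits lie 1727 bp apart, both inside an intron of longer Tm1 transcripts.

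The other Tm1 starts had no IDR peak, only weaker peaks in the relaxed lists of the pool and of both libraries. The strongest pooled peak had a signal of 168 near 3 neighbouring starts of 11 transcripts. It was 57.1 at the start of RT and 68.2 at the starts of RA, RQ and RR. Together the bound starts serve 3 of the 18 transcripts. Protein-coding genes on the opposite strand begin within 1000 bp of some unbound starts, MRG15 at 111 bp from that of RT and CG45218 at 145 bp from that of RA, but none begins so close to a bound start of Tm1.

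**Figure D1:**
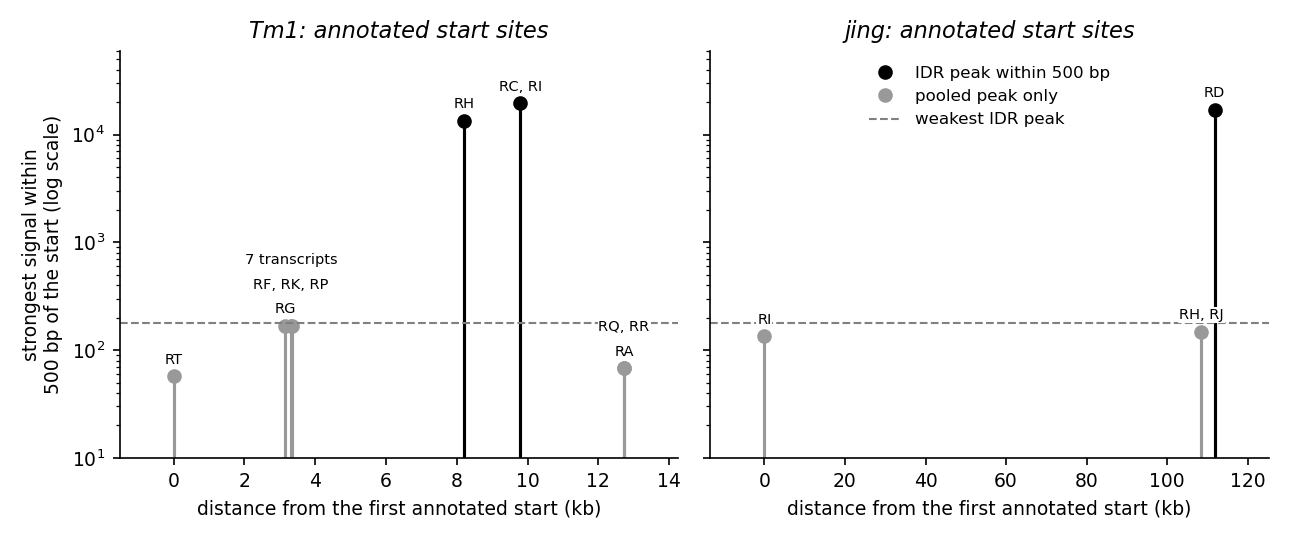
Signal at each annotated start of Tm1 (left) and jing (right), in the authors' unit on a log scale, against distance from the first start in kb, with the names or number of the transcripts above each point. Black points are IDR peaks within 500 bp of the start, grey points the strongest pooled peak where there is no IDR peak, and the dashed line is the weakest IDR peak. The bound starts, RH and RC with RI in Tm1 and RD in jing, reach 13503 to 19524, while the others stay at 168 or less.

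Both transcripts of zpg begin at chr3L:6606032 on the minus strand. The peak, chr3L:6605381-6606614, was the strongest of the 7, with a signal of 20397 in the IDR list, 3919 in replicate 1 and 16561 in replicate 2. The relative values were 60.7 in replicate 1 and 74.3 in replicate 2, or 67.5 ± 9.64 (SD, n = 2). The peak ranked 29 and 28 in the libraries, so its place was nearly the same in both. The summit at 6606104 lay 72 bp upstream of zpg and 75 bp from the start at 6606179 of Rexo5, an RNA exonuclease gene transcribed the other way. The starts are 147 bp apart, so which of the pair the peak belongs to cannot be told apart. Rexo5 also has a start, of transcript RB, beyond the other end of zpg, and the zpg summit lay inside an intron of Rexo5. zpg was the only 1 of the 7 peaks with a divergent partner within 1000 bp, against 28.7% of the 87 other strong start-site peaks.

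The Gasp start at chr3R:6100887 on the minus strand serves both of its transcripts. Its peak, chr3R:6100769-6101356, was 588 bp wide, where the other 6 were 1071 to 1616 bp and the 87 other strong start-site peaks had a median of 1347 bp and a lowest width of 738 bp. The signal was 3323 in the IDR list, 745 in replicate 1 and 2589 in replicate 2. The relative values, 11.5 and 11.6, gave a mean of 11.6 ± 0.0564 (SD, n = 2), the smallest spread of the 7. The signal in replicate 2 was 3.47 times that in replicate 1 for Gasp, while for the other 6 peaks the ratio was 4.08 to 4.40. The 87 other strong start-site peaks had a median ratio of 4.14, and all IDR peaks 3.74. The summit at 6101051 lay 164 bp upstream, and the nearest other protein-coding start, that of the odorant-binding protein gene Obp83cd, was 7083 bp away.

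**Figure D2:**
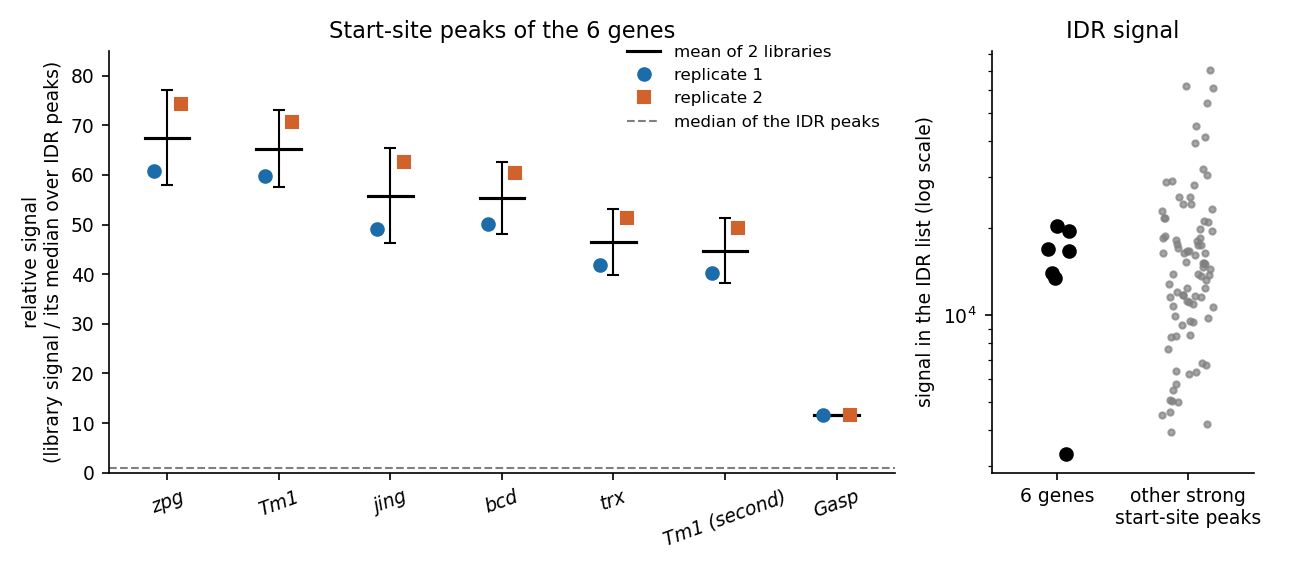
Relative signal of the 7 start-site peaks in each library (left), where the bar and whiskers are the mean and SD of 2 libraries and the dashed line marks the median of the IDR peaks at 1, and IDR signal on a log scale for the 7 peaks and the 87 other strong start-site peaks (right). Gasp lies at 11.6 and the other 6 peaks between 44.7 and 67.5, with replicate 2 above replicate 1 in each of these 6.

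Other genes had start-site peaks of similar strength. The start-site peaks next above and below zpg were those of CD98hc at 69.8 ± 9.05 and Nsf2 at 65.1 ± 10.6 relative signal (SD, n = 2 each). At the edge of the selection, the start-site peak next above Gasp, of CG15642, had 13.6 ± 0.880, and the next below, of CG13077, had 9.54 ± 0.478 (SD, n = 2 each). In every one of the 7 peaks the summits of the libraries lay within 6 bp of the IDR summit.

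The distance from summit to start ran from 25 bp in trx to 262 bp in bcd. The 87 other strong start-site peaks had a median distance of 137 bp, with quartiles of 49.5 and 275 bp. All 7 summits of the 6 genes lay upstream of the start they were assigned to. The direction was not compared with the 87 others, so it is not read as a trait of these genes.

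Measured by the IDR list, the peaks of zpg and Gasp were isolated and those of the other 4 genes were not. These 2 of the 6 genes had no further IDR peak over the gene and 20 kb to either side, beyond the peaks at their own starts, against 15.0% of all bound genes. bcd had 1 further IDR peak, Tm1 2, and trx and jing 3 each. The 87 other strong start-site peaks had a median of 2 such peaks, counted the same way. With 50 kb in place of 20 kb, Gasp alone had none, since zpg then had 1 of signal 249, 22702 bp away and nearest to the start of GluRIA, a glutamate receptor gene.

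Around zpg the pooled list held 13 weaker peaks, the strongest of signal 134 at 3246 bp, in the 5′ untranslated region of axed. The zpg peak was 152 times as strong in the pooled list, 95.3 times in replicate 1 and 170 times in replicate 2. Around Gasp there were 14 pooled peaks and the strongest, 266 bp upstream of another odorant-binding protein gene, Obp83g, reached 122, so the Gasp peak was 27.3 times as strong.

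Around bcd the pooled list held 10 peaks. The 1 among them in the IDR list, at 6762891 in the 5′ untranslated region of Ama, had a signal of 218 and a relative 0.650 ± 0.264 (SD, n = 2). The bcd peak was 76.4 times as strong as this neighbour, and no pooled peak lay over the bcd gene itself. Farther out, 50682 bp from the bcd summit, an IDR peak nearest to the start of the cuticle protein gene Ccp84Aa had a signal of 13280.

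The trx surroundings held 29 pooled peaks, 14 of them over the gene. The strongest was an IDR peak in a trx intron, 3096 bp downstream of the main summit, with a signal of 846 and a relative 3.09 ± 0.229 (SD, n = 2). A second intronic IDR peak lay 8835 bp downstream with a signal of 233, and the third, of signal 295, lay 217 bp upstream of red. The trx start-site peak was 16.6 times as strong as the strongest of these.

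Tm1 had 57 pooled peaks around it other than its own start-site peaks, where the list of replicate 1 held 33 and that of replicate 2 held 51. The IDR peaks among them, of signal 732 and 226, share 1 interval near the starts of Cp190, an insulator protein gene, at 117 bp, and of CG4338, at 36 bp. They lay 12560 and 12360 bp from the stronger Tm1 summit, which was 26.7 times as strong as the stronger of the pair.

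The jing surroundings, which span 160 kb because of the length of the gene, held 58 pooled peaks. One of them was strong. An IDR peak at chr2R:6500175-6500816 had a signal of 4635 in the IDR list, 1028 in replicate 1 and 3628 in replicate 2, a relative 16.1 ± 0.256 (SD, n = 2), which is above that of the Gasp start-site peak in both libraries. It ranked 134 among the IDR peaks. Its summit lay 1584 bp upstream of the start of jing transcript RI and 1350 bp from that of the noncoding gene lncRNA:CR46075, so it is no start-site peak by the 500 bp window, and it lay 113221 bp from the strong peak at RD. A pair of intronic IDR peaks 66824 and 67023 bp upstream of the RD peak had signals of 227 and 265.

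**Figure D3:**
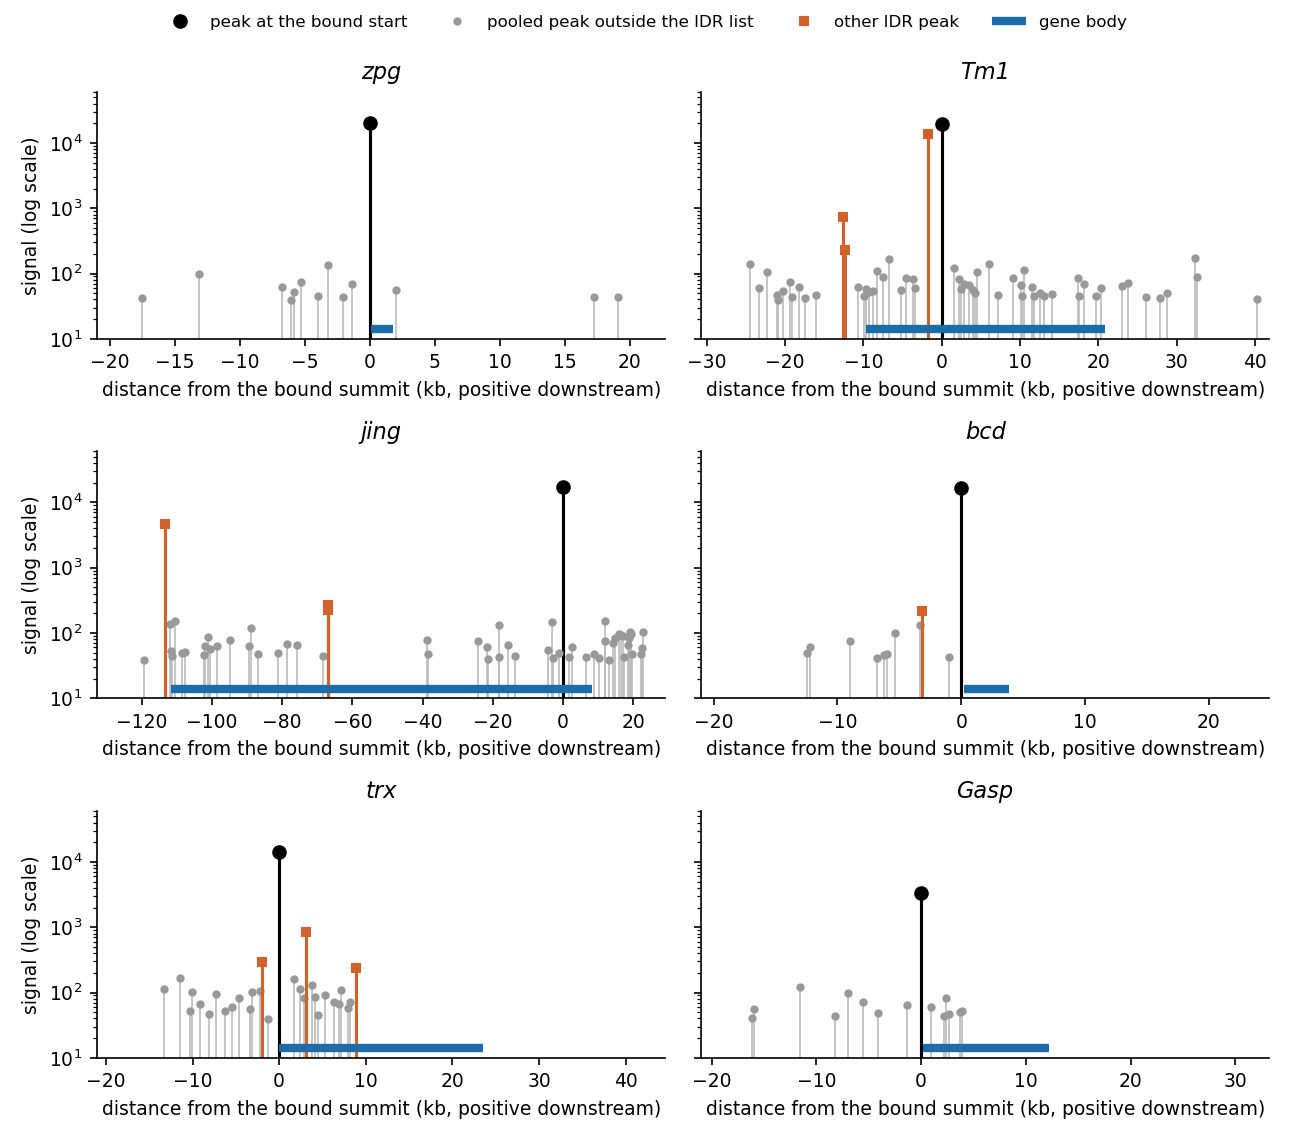
Peaks around the 6 genes, one panel a gene, with signal in the authors' unit on a log scale against distance from the bound summit in kb, positive downstream. Black is the peak at the bound start, orange other IDR peaks, grey pooled peaks outside the IDR list, and the blue bar the gene body. Other IDR peaks are missing around zpg and Gasp, and only Tm1, at its second start, and jing, 113221 bp upstream, show another peak above 1000.

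The words at the summits were looked for in windows of 100 bp to either side of a summit, on both strands, and set beside windows 1000 bp away and beside the windows around 19253 promoters. Words of 8 bases were ranked on the 76 IDR peaks over 10 times the median on arms 2L, 2R and X that lie over 20 kb from jing, so none of the 7 peaks, nor any other peak around the 6 genes, contributed. The first ranked word, AGCTTTTG, and a lower-ranked word that overlaps it by all but 1 base form the joined word. The joined word was formed after the data had been seen, so its counts are a description. Without a mismatch it was in 1 of the 7 start-site peaks, that of zpg, in 13.8% of the 87 others and in 0.421% of promoters. With up to 1 mismatch it was in 3 of the 7 start-site peaks, those of bcd, zpg and Gasp. The corresponding shares were 49.4% for the 87 other strong start-site peaks, 6.90% for the windows 1000 bp from these and 8.72% for promoters. Of the 87, 42 were not among the 76 used for ranking, and 21 of these 42 held the word. The upstream peak of jing also held the joined word, exactly and centred 4 bp from its summit. Any of the 10 ranked words occurred in 5 of the 7 peaks, in 62.1% of the 87 others and in 59.5% of those 42.

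The split word shares its last 4 letters with the start of the joined word. It was written down after the windows of the 6 genes had been seen, with its share in other peaks in view, so its count among them is a description. It was in 5 of the 7 peaks, those of jing, Tm1, the second Tm1 start, zpg and Gasp, and in the upstream peak of jing. Its share was 28.7% in the 87 other strong start-site peaks and 6.90% in the windows 1000 bp from them. In the 3137 IDR peaks at or under 10 times the median it was 4.56%, and in promoters 4.0%. Every match in the 7 peaks was centred within 15 bp of the summit, at 3 bp in jing, 7 bp in Gasp, 10 bp in the second Tm1 peak, 14 bp in Tm1 and 15 bp in zpg. Both words overlap in zpg and Gasp, bcd has the joined word alone, and trx has neither.

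The 2 words were also joined into 15 bases, with an A before the split word. Both words were formed after the data had been seen, so the counts of the 15 bases, which zpg holds, are a description. The 15 bases were found exactly in 9 IDR peaks. Among these were zpg, the upstream peak of jing and 4 of the 87 other strong start-site peaks, so the 15 bases were not confined to start sites. They were in 0 of the 3137 weaker IDR peaks. The promoter windows held the 15 bases 5 times in 19253. The 14-base run of zpg and Gasp was in 3 of 3290 IDR windows, in 2 promoter windows and at 6 places on the 6 arms. The third IDR window belongs to a peak on 3L with its summit at 9854828, 457 bp from a start of RasGAP1, a Ras GTPase-activating protein gene, with a relative signal of 40.8 ± 6.67 (SD, n = 2).

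Of 10 known motifs, core promoter motif 1, the word GGTCACAC bound by the zinc finger protein M1BP, was in the trx window alone of the 7, centred 23.5 bp upstream and 45.5 bp downstream of the summit. It was in 5.75% of the 87 other strong start-site windows and in 5.68% of promoters. The GAGA word GAGAG was in 3 of the 7 (bcd, the second Tm1 start and Gasp) and in 10.3% of the 87 others, 22.3% of all IDR windows and 25.0% of promoters. The E-box CAGCTG was in 2 (jing and Tm1) and in 18.4% of the others and 13.4% of promoters. The BEAF half-site CGATA and the TATA box TATAAA were each in trx alone, and in 43.7% and 31.0% of the 87 others and 37.1% and 26.9% of promoters. The initiator TCAGT was in bcd and zpg (34.5% of the others, 43.4% of promoters). The CTCF core AGGNGGC was in bcd (4.60% and 6.25%). The DNA replication-related element TATCGATA, the Zelda word CAGGTAG and the Pho core GCCAT had no match in the 7 windows. A match is a description of these letters and does not show which protein bound there. The Gasp window had the highest share of G and C, 58.2%, against a median of 38.3% in the other strong start-site windows, and the other 6 lay between 37.8% and 46.3%.

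**Figure D4:**
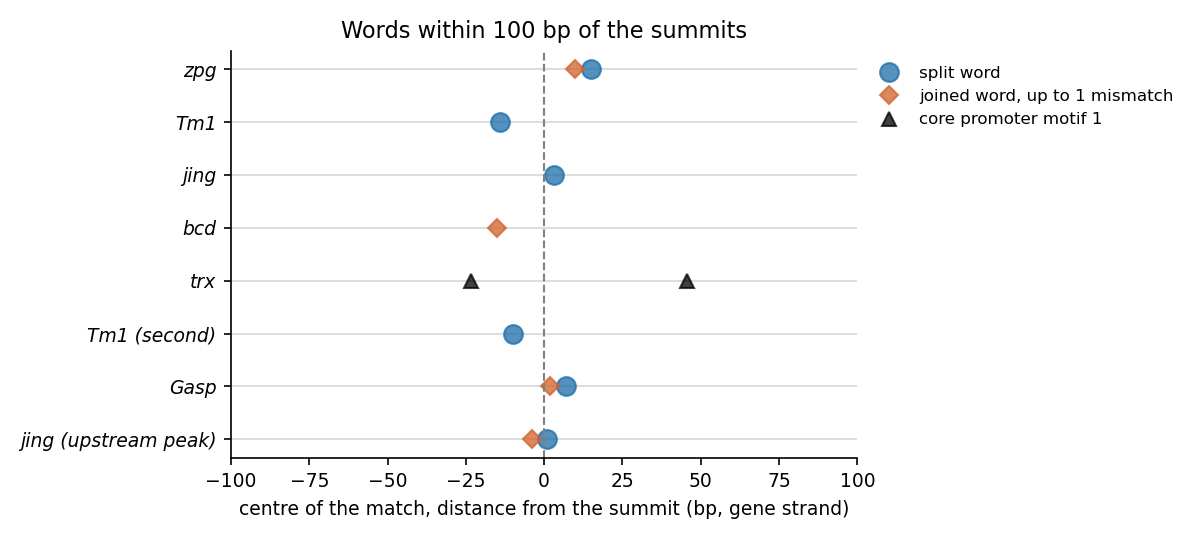
Position of the split word, the joined word with up to 1 mismatch and core promoter motif 1 within 100 bp of the summits, in bp on the strand of the gene, with one line for each of the 7 start-site peaks and the upstream peak of jing. The split and joined words lie within 15 bp of the dashed line at the summit, and of the words drawn here trx shows core promoter motif 1 only.

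The rest of each pathway was read from 8 gene lists with 127 genes other than the 6. Of these 127, 75 had a pooled peak at a start and 25 were bound, which is 19.7%, where 17.9% of all protein-coding genes were. Listed genes as a whole were thus not bound more rarely than other genes, but the lists differed. With the 6 genes counted in, the share ran from 5.00% of the chitin list, which is Gasp alone, to 62.5% of the list for Polycomb repressive complex 2. Without the 6 genes these lists had 0 of 19 and 4 of 7 genes bound. The patterning, muscle filament and innexin lists then had 2 of 20, 2 of 25 and 1 of 7. The trithorax, border cell and germline lists had 9 of 22, 3 of 11 and 4 of 18. The highest IDR signal among the 25 was 1025, for the SWI/SNF ATPase gene brm, and their median was 281, near the 279.9 of all IDR peaks. None of the 25 exceeded 10 times the IDR median, while all 6 genes do by their selection. Among all 1945 IDR peaks at a protein-coding start only 94 did, so nothing is read from the lack of one here. For 9 of the 25 (brm, swa, tai, Jarid2, trr, Bap60, skd, fs(1)h and gcl) the summit was nearer the start of another gene, Arl1 in the case of brm, so those peaks cannot be assigned to the listed gene. A divergent partner within 1000 bp was found for 13 of the 25.

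In the anterior-posterior patterning list 3 of 21 genes were bound. Beside bcd these were swa, needed to anchor bcd mRNA at the anterior pole, with a relative signal of 0.879 ± 0.423, and the head gene cnc at 0.876 ± 0.284 (SD, n = 2 each). In replicate 2 both were above that library's median over the IDR peaks and in replicate 1 below it. The list of border cell migration genes had 4 of 12 bound, jing and the transcription regulators Stat92E at 0.991 ± 0.254, tai at 1.52 ± 0.180 and usp at 0.876 ± 0.291 (SD, n = 2 each).

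Both lists of chromatin genes had a higher share bound than the other 6, which was not tested. Without jing and trx, which were picked as bound, these lists had 4 of 7 and 9 of 22 genes bound. For Jarid2, brm, trr, Bap60, skd and fs(1)h the summit lay nearer the start of another gene, as stated above. Of 8 genes of Polycomb repressive complex 2, with jing as an associated factor, 5 were bound, among them E(z), its methyltransferase, at a relative 1.73 ± 0.556 (SD, n = 2). The others were Jarid2, esc and Su(z)12 at 0.757 to 0.880. E(z) and Su(z)12 have the divergent partners Cnep1r2 and Pfdn6, so which gene of each pair the peak belongs to cannot be told apart. In the trithorax group 10 of 23 were bound. After trx came brm at 3.71 ± 0.325, ash2, a subunit of histone methyltransferase complexes, at 1.73 ± 0.0979, and Trl, which encodes the GAGA factor, at 1.53 ± 0.145 (SD, n = 2 each). Bap60, skd, kis, fs(1)h and Utx lay between 0.550 and 1.20. The methyltransferase gene trr had a peak in replicate 2 alone, of signal 184, and no peak of replicate 1 over the IDR summit.

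Among 26 muscle filament genes, 3 were bound, namely Tm1, the titin-related gene sls at 1.25 ± 0.116 and the tropomodulin gene tmod at 0.753 ± 0.0440 (SD, n = 2 each). Of the 8 innexins, zpg and Inx7 were bound, Inx7 at 0.714 ± 0.0124 (SD, n = 2). The germline list had 5 of 19 bound. Besides zpg, bgcn, a partner of the differentiation factor bam, had 1.88 ± 0.263 (SD, n = 2), and Sxl, piwi and gcl had 0.769 to 1.02. In the list of chitin and obstructor genes Gasp was the only 1 of 20 that was bound.

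**Figure D5:**
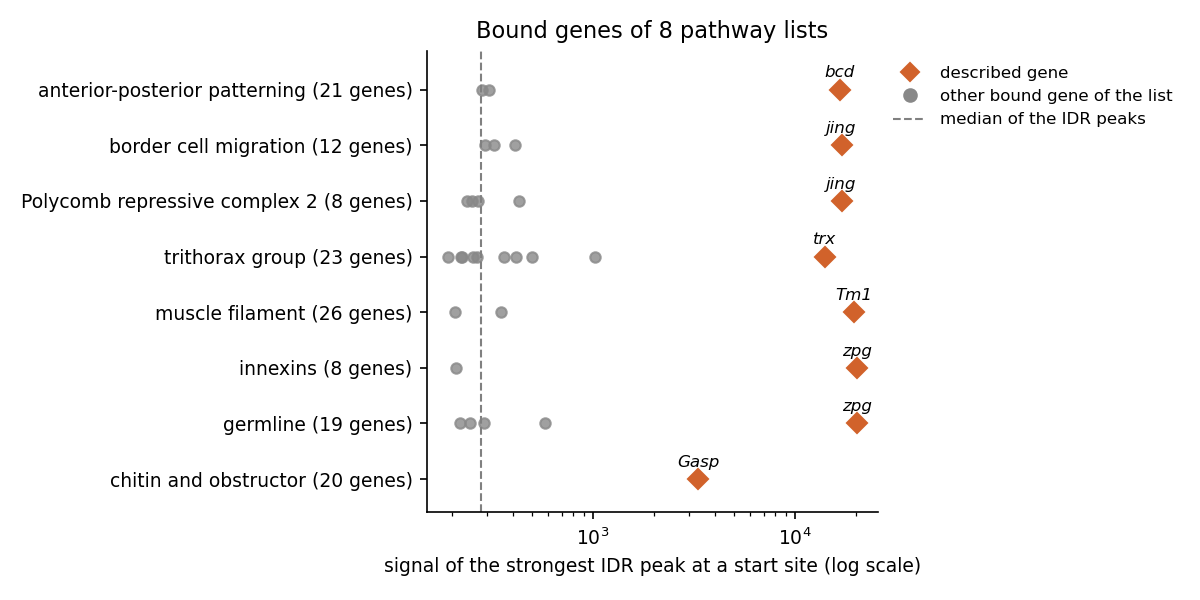
Signal of the strongest IDR peak at a start site, in the authors' unit on a log scale, for the bound genes of 8 lists, with the number of genes in each list in parentheses. Orange diamonds are the 6 described genes (jing and zpg are each on 2 lists), grey circles other bound genes, and the dashed line the median of the IDR peaks. The other bound genes end at 1025, below the lowest diamond, Gasp, at 3323, where the 6 were picked for high signal.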

How the data were processed

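The deposited peak lists, on dm6, give each peak a signal whose unit and scaling the authors do not state. The caller, the threshold on IDR and the number of reads could not be read from the labels or headers. The deposited lists were used as they stand: 1 relaxed list per library, 1 of the pool and 1 thresholded on IDR. A library's value for a peak is the strongest of its peaks that covers the IDR summit, divided by that library's median over the IDR peaks. Start sites came from Ensembl release 115 (BDGP 6.54) and sequence from RefSeq Release 6. For bound starts, nearest genes and divergent partners only protein-coding genes were searched, so a noncoding start can lie nearer to a summit. A summit within 500 bp of a start counted as bound, and a start within 1000 bp on the other strand, transcribed away, as divergent. The scripts ran under Python 3.11.15 and used matplotlib 3.10.9, biopython 1.88, pandas 2.3.3 and numpy 2.4.6. The word search was tested on simulated data. The 6 genes and the gene lists were chosen with earlier results of these data known. Named genes are the 6, all bound genes of the lists, the nearest and divergent neighbours, the genes at other IDR peaks and the neighbours in rank. With 1 group there is no test between groups, and no p-value is given. The joined and split words, and the third peak that holds the 14-base run, were chosen after the data had been seen.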

Additional observations from a re-analysis of the deposited data

How the results depend on the processing

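Leaving out 1 of 2 libraries cannot move a mean beyond its SD, so for the relative signals the values of the single libraries stand in the report and are not counted here. Of 39 other recomputed values, 28 stayed within the spread between replicates or within 1.5 times the count, and 11 moved. Divided by each library's mean over the IDR peaks in place of its median, the relative signal was 18.0 for zpg, 17.5 for Tm1, 14.9 for jing, 14.8 for bcd, 12.4 for trx, 11.95 for the second Tm1 peak and 3.12 for Gasp, because the divisor is larger. With the library peak whose summit is nearest to the IDR summit in place of the strongest, Gasp had 11.7. Within 100 bp of a start, 3 of the 6 genes were bound in place of 6. With 50 kb around the gene, 1 gene, Gasp, in place of 2 had no further IDR peak. Among the IDR peaks above the median signal, 13 listed genes other than the 6 were bound in place of 25. The joined and split words, added after seeing the data, kept their counts or gained 1 peak under other windows and single libraries. The relaxed lists end at a signal of 10.6 in replicate 1, 34.8 in replicate 2 and 38.5 in the pool, so weaker binding around the 6 genes was not detectable. Without a control library, enrichment over background was not measured here, and with 2 libraries an SD is itself imprecise.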
